A study of Mus musculus with 6 samples.

Results

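The MHC class I antigen presentation genes examined here are 10 genes chosen by symbol, of 24786 gene symbols measured: the heavy chain genes *H2-K1*, *H2-D1*, *H2-T23* and *H2-Q4*, the light chain gene *B2m*, and *Tap1*, *Tap2*, *Tapbp*, *Erap1* and *Nlrc5*. All 10 passed the filter on low values. They were read from 6 RNA-sequencing libraries of Raw264.7 cells, a mouse macrophage line established from an Abelson murine leukemia virus-induced tumor. Of these, 3 libraries were from cells given a control shRNA by lentivirus (sh-NC, genotype label control) and 3 from cells given an shRNA against the transcription factor gene *Etv5* (sh-*Etv5*, genotype label Etv5 knockdown). The labels name Lipofectamine 3000 for both groups and give 24 or 48 h after infection as the times of measurement. The study calls the sequenced cells stably transfected. Neither source says which of the shRNAs was used or whether replicate libraries stem from separate infections, so p-values measure only how libraries spread, which may be technical.

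MHC class I molecules show peptides from inside the cell to CD8 T cells and to natural killer cells. Each molecule is a heavy chain held together with beta-2 microglobulin, the product of *B2m*. Proteasomes cut proteins into peptides, the TAP1 and TAP2 transporter carries these into the endoplasmic reticulum (ER), tapasin (*Tapbp*) joins the transporter to the empty heavy chain, and the aminopeptidase ERAP1 trims the peptides to fit. NLRC5 is a coactivator of the promoters of many genes of this pathway, and interferons are known to raise most of them in macrophages.

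Several features of the measurement bear on these genes. The labels give C57BL/6 as the strain and mm10, the C57BL/6 genome, as the build, whereas Raw264.7 is generally described as a line from a BALB/c mouse, which carries other class I alleles. The levels of *H2-K1*, *H2-D1* and the other heavy chain genes of the MHC may therefore also depend on how reads with mismatches were placed. So may the sums, shares and ratios formed from them, which was not tested. Heavy chain genes also resemble each other. Of the 50-base stretches of their annotated transcripts, 9.63% for *H2-K1*, 12.8% for *H2-D1*, 13.6% for *H2-T23* and 21.8% for *H2-Q4* occurred in another gene as well, so that reads could be split or counted for several genes. The share was 0% for *B2m*, *Erap1* and *Nlrc5* and at most 2.87% for *Tap1*, *Tap2* and *Tapbp*.

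**Figure D1:**
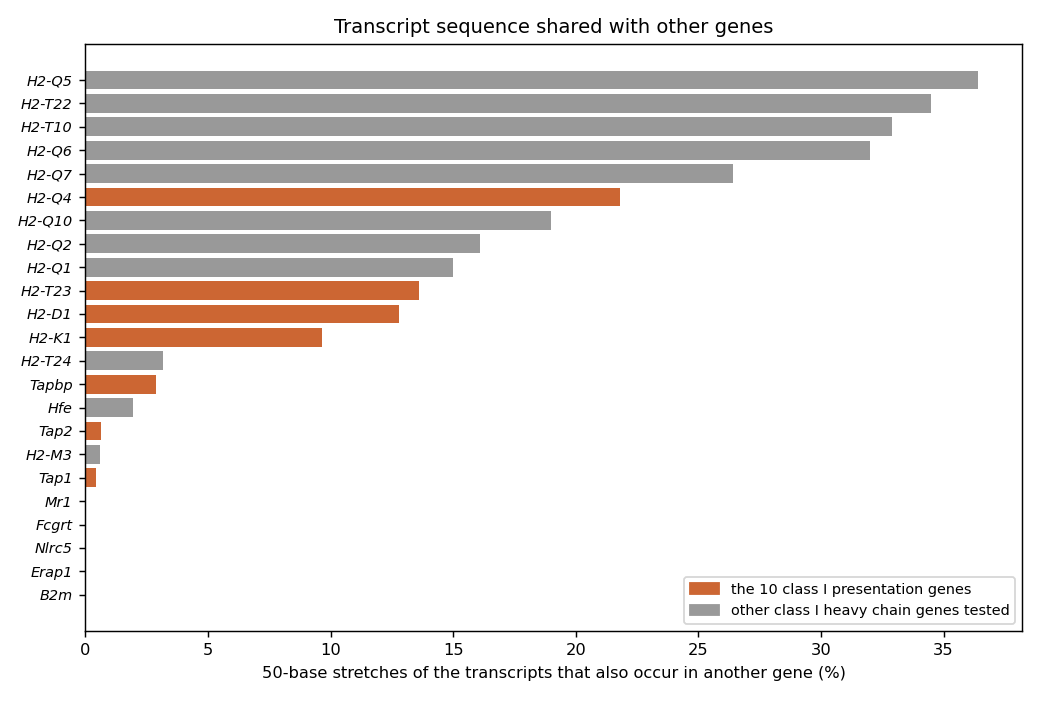
Horizontal bars give, for each class I gene tested that the annotation lists, the percentage of the 50-base stretches of its transcripts that also occur in another gene. The 4 heavy chain members lie between 9.63% and 21.8%, whereas the other 6 members are at 2.87% or below; *H2-Q8*, *H2-Q9* and *H2-T9* have no bar because the annotation lists no gene of that symbol.

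Expression values are RPKM, read numbers scaled to the length of the gene in kilobases and to the mapped reads of the library. In such bulk samples, fewer cells that express a gene and less of its RNA per cell cannot be told apart. The groups were compared by limma on log2(RPKM + 1), a scale that understates the change of low genes, and a gene was called where its p-value, adjusted by Benjamini-Hochberg over all 10738 genes tested, was under 0.05. *Etv5* was at 9.18, 9.89 and 9.39 RPKM in the 3 controls and at 5.19, 4.91 and 5.28 RPKM after knockdown, so that it was lower in each knockdown library. Of the 10 macrophage markers, 9 were measured at 1 RPKM or more, and *Mertk* was not. Summed, the macrophage markers were at 4490 to 4616 RPKM in sh-NC and at 3587 to 3704 RPKM in sh-*Etv5* libraries. Most of this sum was *Lyz2* (2834 and 2041 RPKM on average), and the list was mixed, with 4 of its 9 tested genes higher (*Itgam*, *Adgre1*, *Cd14* and *Spi1*) and 4 lower (*Csf1r*, *Cd68*, *Fcgr1* and *Lyz2*). The largest differences were those of *Itgam* (33.8 and 127 RPKM) and *Adgre1* (2.60 and 11.3 RPKM). Of all genes tested, 33.3% were called higher and 41% lower. Markers of T and NK, B, dendritic, fibroblast and epithelial cells stayed below 1 RPKM in each library. The summed neutrophil markers were at 0.123 to 0.491 RPKM in sh-NC and at 15.6 to 19.7 RPKM in sh-*Etv5* cells, nearly all of it *S100a8*, while *Ly6g*, *S100a9* and *Elane* were at 0. The part of these differences in the results was not tested. Inferred from the low values, the relative depth of the libraries lay between 0.897 and 1.06 of that of sh-NC replicate 1.

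The promoters of the members whose values are compared most closely below are shown first, because these genes cover the heavy chains, the light chain, the transporter, tapasin and the trimming peptidase. Each stretch is a RefSeq window on GRCm38.p6 from 250 bases before to 50 bases after a gene start, and 8 of the 10 members had one. Capitals mark the matches, on either strand, to a kB-type motif (GGGNNTTCC), the core of an interferon-stimulated response element or ISRE (GAAANNGAA), the core of a cyclic AMP response element or CRE (TGACG) and the CCAAT box (CCAAT). The windows are chr17:34000298-34000597 on the minus strand for *H2-K1*, and chr17:35262844-35263143, chr2:122147437-122147736, chr17:34187306-34187605, chr17:33919228-33919527 and chr13:74639603-74639902 on the plus strand for *H2-D1*, *B2m*, *Tap1*, *Tapbp* and *Erap1*.
H2-K1: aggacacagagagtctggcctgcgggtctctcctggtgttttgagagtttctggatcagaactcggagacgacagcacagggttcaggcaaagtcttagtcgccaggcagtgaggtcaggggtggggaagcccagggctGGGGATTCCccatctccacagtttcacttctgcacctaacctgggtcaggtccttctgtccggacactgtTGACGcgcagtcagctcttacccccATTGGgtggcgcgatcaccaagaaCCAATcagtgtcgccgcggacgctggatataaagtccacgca
H2-D1: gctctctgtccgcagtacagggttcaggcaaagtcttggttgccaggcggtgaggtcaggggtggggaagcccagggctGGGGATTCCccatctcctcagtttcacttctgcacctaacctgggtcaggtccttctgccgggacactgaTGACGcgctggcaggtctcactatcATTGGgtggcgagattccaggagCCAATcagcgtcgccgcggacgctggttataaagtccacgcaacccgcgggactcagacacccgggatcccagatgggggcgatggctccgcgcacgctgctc
B2m: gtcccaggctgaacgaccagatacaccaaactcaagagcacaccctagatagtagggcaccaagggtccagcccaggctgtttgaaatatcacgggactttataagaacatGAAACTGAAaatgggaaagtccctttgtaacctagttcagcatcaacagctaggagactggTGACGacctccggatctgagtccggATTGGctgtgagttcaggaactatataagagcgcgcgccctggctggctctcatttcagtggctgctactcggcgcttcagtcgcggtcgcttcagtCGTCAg
Tap1: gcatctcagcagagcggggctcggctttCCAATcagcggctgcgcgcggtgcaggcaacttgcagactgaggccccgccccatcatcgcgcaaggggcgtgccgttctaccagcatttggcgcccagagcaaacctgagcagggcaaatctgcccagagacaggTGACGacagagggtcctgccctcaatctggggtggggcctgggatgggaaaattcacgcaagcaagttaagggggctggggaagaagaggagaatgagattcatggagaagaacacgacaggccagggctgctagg
Tapbp: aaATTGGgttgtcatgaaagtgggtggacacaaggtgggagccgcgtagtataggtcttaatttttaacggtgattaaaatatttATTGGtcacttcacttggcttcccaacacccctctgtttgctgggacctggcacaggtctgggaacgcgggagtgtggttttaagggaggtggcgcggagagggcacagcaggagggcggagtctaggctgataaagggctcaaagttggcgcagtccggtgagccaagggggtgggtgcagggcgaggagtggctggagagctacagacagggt
Erap1: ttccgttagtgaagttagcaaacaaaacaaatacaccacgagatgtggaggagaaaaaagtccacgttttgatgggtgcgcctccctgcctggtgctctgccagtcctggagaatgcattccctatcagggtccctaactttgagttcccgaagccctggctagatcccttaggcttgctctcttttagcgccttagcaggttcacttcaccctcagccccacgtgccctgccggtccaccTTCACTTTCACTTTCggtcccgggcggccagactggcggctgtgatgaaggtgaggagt

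The windows of *H2-K1* and *H2-D1* were identical at 206 of 228 aligned positions (90.4%), and each held the kB motif, the CRE core and CCAAT boxes in the same order. The kB motif, found in 5.82% of all 32851 promoter windows, was present in *H2-K1*, *H2-D1* and *H2-Q4*. The ISRE core, found in 8.56% of windows, was present in *B2m*, *H2-T23* and *Erap1*, where a pair of matches overlapped next to the gene start. Only this pattern was searched, and no variants of it. The windows of *H2-K1*, *H2-D1* and *H2-Q4* each hold the similar stretch agtttcacttct after the kB motif, which the pattern misses. The absence of a match in these windows is thus not the absence of an interferon response element. A CRE core together with a CCAAT box, found in 7.73% of windows, was present in *H2-K1*, *H2-D1*, *H2-Q4*, *B2m* and *Tap1*. The ETS-type motif CCGGAAGT, of the kind that ETV5 and its relatives bind, was found in 3.89% of all windows and in none of the 8 searched here. A match is a stretch of letters and not a measured binding site.

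In sh-*Etv5* cells, 4 of the 10 genes were higher (*Tap2*, *Tap1*, *H2-D1* and *Nlrc5*), 2 were lower (*Erap1* and *Tapbp*) and 4 did not pass (*H2-K1*, *H2-T23*, *H2-Q4* and *B2m*). Among all genes tested, 33.3% were called higher, 41% lower and 74.3% in either direction. Control and knockdown libraries were without overlap for 7 of the 10 genes, compared with 76.4% of all genes tested. The median log2 fold change was 0.08 for the 10 genes and -0.05 for all genes tested. The median absolute log2 fold change was 0.32 for the 10 genes and 0.31 for all genes tested, and none of the 10 exceeded 1. The share called in either direction was thus no higher than the background. Since genes of the pathway moved in both directions, its steps are described separately.

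**Figure D2:**
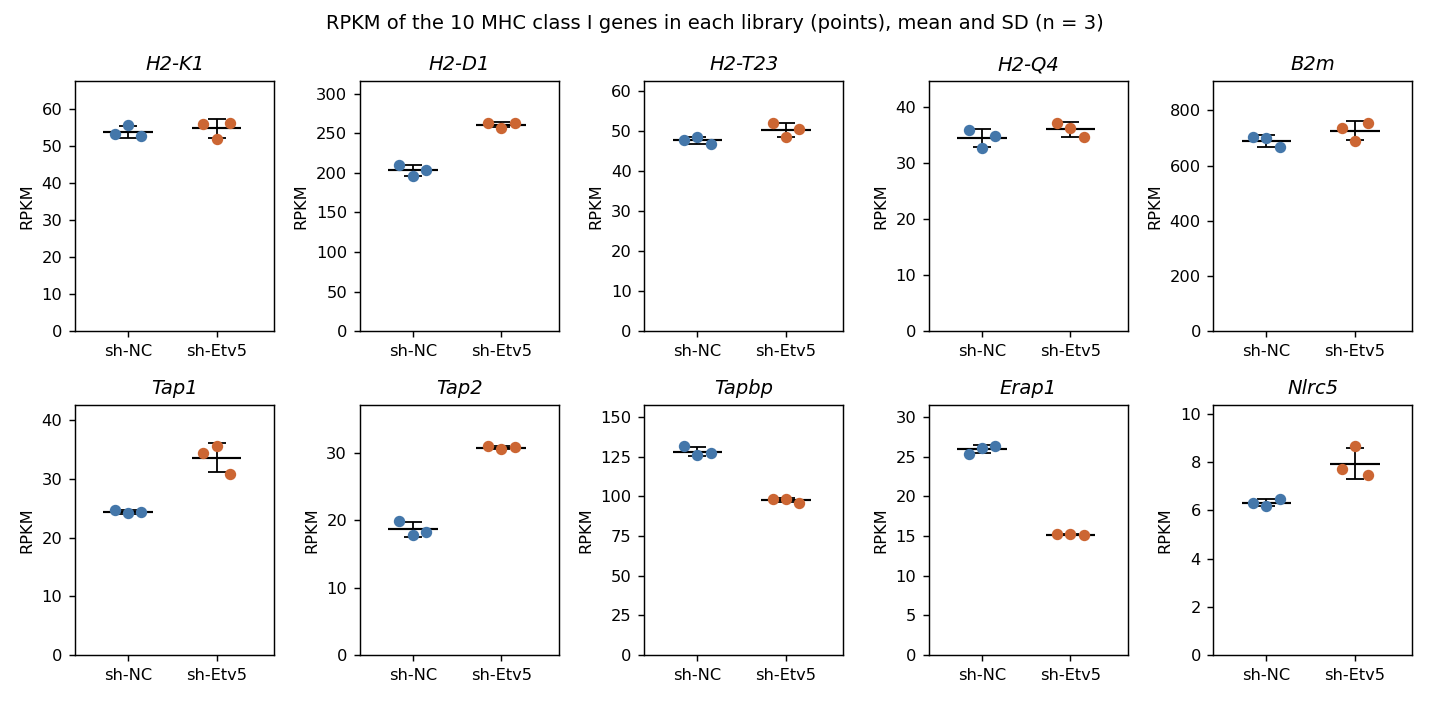
Each panel plots the RPKM of a gene (vertical axis, from 0) in the 3 sh-NC and 3 sh-*Etv5* libraries as points, with the mean and SD as lines. The groups are apart for *H2-D1*, *Tap1*, *Tap2*, *Tapbp*, *Erap1* and *Nlrc5*, whereas they meet or overlap for *H2-K1*, *H2-T23*, *H2-Q4* and *B2m*.

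Among the heavy chains, *H2-D1* rose. *H2-D1* (mm10 chromosome 17, 35262730 to 35267499, plus strand) encodes the classical heavy chain of the D locus. It was at 210, 196 and 204 RPKM in the 3 controls and at 263, 257 and 262 RPKM after knockdown. Each knockdown library was above each control library, and the mean rose by 28.4%, from 203 ± 6.70 to 261 ± 3.39 RPKM (± SD, n = 3). On the log2 scale the difference was 0.36 (standard error 0.0338, adjusted p = 2.30e-06 by limma).

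*H2-K1* (chromosome 17, 33996017 to 34000347, minus strand), the classical heavy chain gene of the K locus, was at 53.2, 55.7 and 52.7 RPKM in the 3 controls and at 56.1, 52.0 and 56.3 RPKM after knockdown. The groups overlapped, and the log2 fold change was 0.024 (95% interval -0.069 to 0.12, adjusted p = 0.625 by limma). Its direction depended on the scaling, since it was -0.037 with libraries rescaled to the same sum. Within each library, the RPKM of *H2-K1* was 0.254, 0.284 and 0.258 of that of *H2-D1* in sh-NC and 0.213, 0.202 and 0.215 of it in sh-*Etv5* cells. This ratio does not depend on library scaling, and it was lower in each knockdown library (difference of the log2 ratio -0.34, exact permutation test, p = 0.1, adjusted p = 0.133 over 12 pairs). With 3 libraries a group, 0.1 is the smallest 2-sided p that this test can give.

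*H2-T23* (chromosome 17, 36029773 to 36032855, minus strand) encodes Qa-1, a non-classical heavy chain that is read by NK cell receptors. It was at 47.7, 48.4 and 46.8 RPKM in the 3 controls and at 52.0, 48.5 and 50.4 RPKM after knockdown, so that the groups came within 0.1 RPKM of each other without overlapping. The log2 fold change of 0.076 did not pass the test (95% interval -0.0079 to 0.16, adjusted p = 0.0911 by limma). It passed without sh-*Etv5* replicate 2 (log2 fold change 0.10, adjusted p = 0.0383 by limma) and with quantile normalization (0.13, adjusted p = 0.0085 by limma), and over its alternatives the adjusted p ranged from 0.0085 to 0.713.

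*H2-Q4* (chromosome 17, 35379617 to 35385290, plus strand), a heavy chain gene of the Q region, was at 35.9, 32.8 and 34.9 RPKM in the 3 controls and at 37.3, 36.3 and 34.6 RPKM after knockdown. Its groups overlapped (log2 fold change 0.061, 95% interval -0.039 to 0.16, adjusted p = 0.242 by limma). Of its exon bases, 19.1% lie on the strand opposite to exons of *Gm11131*. The library kit named by the study does not mark strand, and reads of such overlapping genes could not be told apart.

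Summed over these 4 heavy chain genes, RPKM went from 339 ± 6.69 to 402 ± 7.59 (SD, n = 3). The sum and the shares below depend on this choice of genes. Of 16 other class I genes tested, 8 were higher and 3 lower, beside 33.3% and 41% of all genes tested. Among the lower was *H2-T24*, at 75.7 RPKM in sh-NC and 49.2 RPKM in sh-*Etv5* cells. *H2-D1* made up 59.9 ± 0.867% of this sum in sh-NC and 64.9 ± 0.431% in sh-*Etv5* cells (SD, n = 3). The shares of *H2-K1*, *H2-T23* and *H2-Q4* were each lower in the knockdown libraries than in any control library. These lower shares restate the rise of *H2-D1* within the sum and are not falls of these genes, of which none was called.

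*B2m* (chromosome 2, 122147686 to 122153083, plus strand), which encodes the light chain, had the highest level of the 10 genes. It was at 704, 698 and 665 RPKM in the 3 controls and at 736, 688 and 755 RPKM after knockdown, with 1 knockdown library inside the range of the controls. The log2 fold change was 0.074 (95% interval -0.016 to 0.16, adjusted p = 0.12 by limma). Without sh-*Etv5* replicate 2, which was the lowest knockdown library for *B2m*, *H2-T23* and *H2-K1*, it was 0.11 (adjusted p = 0.0147 by limma), and the adjusted p lay between 0.0147 and 0.724 across the alternative fits. The level of *B2m* was 2.03 ± 0.0658 times the sum of the 4 heavy chain genes in sh-NC and 1.81 ± 0.0621 times in sh-*Etv5* cells (SD, n = 3). Other heavy chain genes, such as *H2-T24*, are not in this sum. Of its 4 genes only *H2-D1* was called, so the lower ratio largely restates the rise of *H2-D1* and is not a fall of *B2m*. The ratios of *B2m* to the sum did not overlap between the groups. By contrast, the ratios of *H2-T23*, *H2-Q4* and *B2m* to *H2-K1* did overlap (differences of the log2 ratio 0.053, 0.037 and 0.051, exact permutation test, p = 0.2, 0.6 and 0.3, adjusted p = 0.24, 0.6 and 0.327).

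Both subunits of the peptide transporter rose. *Tap2* (chromosome 17, 34203527 to 34216321, plus strand) had the largest rise of the 10 genes. It was at 19.9, 17.8 and 18.3 RPKM in the 3 controls and at 30.9, 30.5 and 30.8 RPKM after knockdown. Its mean rose by 64.9%, from 18.7 ± 1.13 to 30.8 ± 0.233 RPKM (± SD, n = 3), and the log2 fold change was 0.69 (standard error 0.0473, adjusted p = 1.59e-07 by limma). Of its exon bases, 18.5% lie opposite to exons of *Gm15821* or *Gm20496*.

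*Tap1* (chromosome 17, 34187553 to 34197225, plus strand) was at 24.7, 24.1 and 24.3 RPKM in the 3 controls and at 34.4, 35.6 and 30.9 RPKM after knockdown. The groups did not overlap, although the knockdown libraries spread more than the controls. The mean rose by 37.9%, from 24.4 ± 0.291 to 33.6 ± 2.46 RPKM (± SD, n = 3), and the log2 fold change was 0.45 (standard error 0.0518, adjusted p = 1.35e-05 by limma). *Tap1* stood at 1.31 ± 0.0619 times the RPKM of *Tap2* in sh-NC and at 1.09 ± 0.0843 times in sh-*Etv5* cells (SD, n = 3). The ratio was lower in each knockdown library (difference of the log2 ratio -0.25, exact permutation test, p = 0.1, adjusted p = 0.133).

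Tapasin and the trimming peptidase fell. *Tapbp* (chromosome 17, 33915899 to 33929292, plus strand) was at 132, 126 and 127 RPKM in the 3 controls and at 98.2, 98.4 and 96.0 RPKM after knockdown. The groups were well apart, and the mean fell by 24.0% and went from 128 ± 2.83 to 97.5 ± 1.33 RPKM (± SD, n = 3). On the log2 scale the difference was -0.39 (standard error 0.0325, adjusted p = 8.00e-07 by limma). Of the exon bases of *Tapbp*, 24.9% lie opposite to exons of *Gm19412*, and 4.11% are shared with *Zbtb22* on the same strand, which was at 10.8 RPKM in sh-NC and 10.7 RPKM in sh-*Etv5* cells.

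*Erap1* (chromosome 13, 74639568 to 74693201, plus strand) had the largest change of the 10 genes. It was at 25.4, 26.2 and 26.3 RPKM in the 3 controls and at 15.3, 15.2 and 15.1 RPKM after knockdown. The mean fell by 41.4% and went from 25.9 ± 0.515 to 15.2 ± 0.0996 RPKM (± SD, n = 3), and the log2 fold change was -0.73 (standard error 0.0402, adjusted p = 2.55e-08 by limma). Of its exon bases, 11.5% lie opposite to exons of *Cast*, whose own level was 4.76 to 5.29 RPKM in sh-NC and at least 9.82 RPKM in sh-*Etv5* cells, the other direction.

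*Erap1* thus differed from *Tap1* in direction, and their ratio within a library was lower in each knockdown library than in any control. *Erap1* was not set against *Tap2*. *Erap1* was at 1.06 ± 0.0326 times the RPKM of *Tap1* in sh-NC and at 0.453 ± 0.0314 times in sh-*Etv5* cells (SD, n = 3). *Tap1* was at 0.190 ± 0.002 times the RPKM of *Tapbp* in sh-NC and at 0.345 ± 0.0207 times in sh-*Etv5* cells (SD, n = 3). Neither ratio overlapped between the groups (differences of the log2 ratio -1.18 and 0.84, exact permutation test, p = 0.1 for each, adjusted p = 0.133).

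The genes whose 6 values lay closest to those of *Erap1*, by Euclidean distance of log2(RPKM + 1) after subtraction of each gene's sh-NC mean, were *Usp7* (distance 0.0286), *Slc12a2* (0.0358) and *Kpna1* (0.0374). Their log2 fold changes were -0.73, -0.73 and -0.74. The likeness rests on 6 libraries in 2 groups.

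*Nlrc5* (chromosome 8, 94434356 to 94527272, plus strand), the coactivator, had the lowest level of the 10 genes and rose. It was at 6.31, 6.19 and 6.47 RPKM in the 3 controls and at 7.70, 8.66 and 7.46 RPKM after knockdown. Each knockdown library was above each control, and the mean rose by 25.5%, from 6.32 ± 0.139 to 7.94 ± 0.633 RPKM (± SD, n = 3). On the log2 scale the difference was 0.29 (standard error 0.0629, adjusted p = 0.00171 by limma), and it was between 0.23 and 0.32 with each library left out in turn.

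In sh-NC cells the order of the levels was *B2m*, *H2-D1*, *Tapbp*, *H2-K1*, *H2-T23*, *H2-Q4*, *Erap1*, *Tap1*, *Tap2* and *Nlrc5*, and no neighbours in this order overlapped between libraries. In sh-*Etv5* cells *Erap1* stood below *Tap2*. There, *H2-K1* overlapped with *H2-T23*, *H2-Q4* with *Tap1*, and *Tap1* with *Tap2*.

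Outside the 10 genes, lists of related genes were read from the same comparison. The counts of each list stand beside 33.3% called higher and 41% called lower among all genes tested. Of 33 other class I heavy chain and class I-like genes, 16 were tested, and of these 8 were higher, 3 lower and 5 not called (median log2 fold change 0.14). *Mr1*, which presents vitamin B metabolites to MAIT cells, was at 0.416, 0.577 and 0.581 RPKM in the 3 controls and at 2.65, 3.09 and 2.83 RPKM after knockdown (log2 fold change 1.34, adjusted p = 8.46e-08 by limma). Its control values were all below the filter of 1 RPKM, so *Mr1* was tested only because of its knockdown values. Its call thus lends no support of its own to the count of higher genes. *Fcgrt*, the neonatal Fc receptor, rose from 1.41 ± 0.0228 to 2.82 ± 0.279 RPKM (± SD, n = 3). Its change on log2(RPKM + 1) was 0.66 (adjusted p = 1.51e-05 by limma), which understates the change in RPKM at this low level. *H2-T24* fell from 75.7 ± 1.06 to 49.2 ± 1.28 RPKM (± SD, n = 3), with a change of -0.61 on log2(RPKM + 1) (adjusted p = 3.62e-08 by limma).

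Within the MHC, genes of the T region went in both directions. *H2-T9*, *H2-T10* and *H2-T22* were higher (log2 fold changes 0.52, 0.46 and 0.54), and *H2-T10* and *H2-T22* share 31.7% and 31.2% of their 50-base stretches with each other. In the Q region, *H2-Q1*, *H2-Q2* and *H2-Q10* were higher (0.35, 0.32 and 0.31) while *H2-Q6* and *H2-Q8* were lower (both -0.27). *H2-Q6* was between 1.027 and 1.029 times *H2-Q8* in the 6 libraries, and *H2-Q7* between 0.9903 and 0.9904 times *H2-Q9*. These pairs thus carried nearly the same values and do not count as separate measurements. *H2-T9* lay between 1.626 and 1.679 times *H2-T22*, and these 2 of the 8 higher genes may not be separate measurements either. *H2-Q2* overlapped between the groups and lost its call in 7 of 14 alternative fits. Without sh-*Etv5* replicate 2, 5 genes of this list were lower, and with only genes of a mean of at least 5 RPKM, 3 genes were higher.

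RNAs of a list of peptide-loading helpers and other ER chaperones or editors were mixed. Of 9 tested genes, 5 were higher and 4 lower (median log2 fold change 0.15), beside 33.3% and 41% of all genes tested. The ER chaperone *Calr* and its partner *Pdia3*, both part of the loading complex, rose by 11.2% and 12.1% (log2 fold changes 0.15 and 0.16, adjusted p = 0.00143 and 0.000841 by limma). *Canx*, the related membrane chaperone, fell by 18.0% (-0.29, adjusted p = 2.43e-05 by limma), and *Uggt1*, which tags incompletely folded glycoproteins for another round with these chaperones, fell from 19.2 to 13.8 RPKM (-0.45, adjusted p = 7.60e-06 by limma). *Tapbpl*, which encodes the tapasin relative TAPBPR, was at 2.87 ± 0.106 RPKM in sh-NC and 3.49 ± 0.324 RPKM after knockdown (SD, n = 3), a rise with a log2 fold change of 0.21 (adjusted p = 0.0212 by limma) that lost its call in 6 of 14 alternative fits. The largest changes were those of *Ero1l*, an oxidase of the ER (1.43, adjusted p = 2.81e-10 by limma), and *Sel1l*, a part of the machinery that removes misfolded proteins from the ER (1.16, adjusted p = 1.06e-09 by limma).

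**Figure D3:**
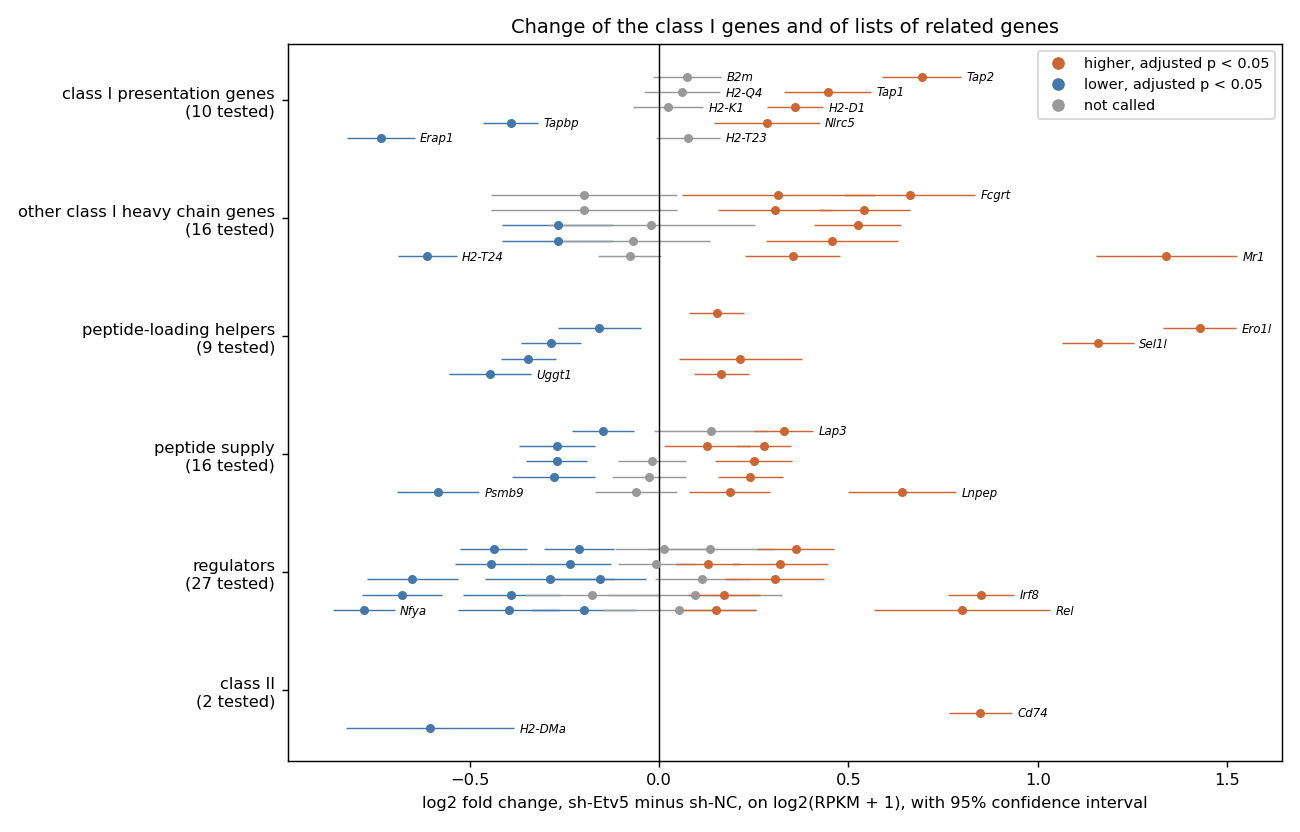
Each point is the log2 fold change of a tested gene on log2(RPKM + 1) (horizontal axis, sh-*Etv5* minus sh-NC) with its 95% confidence interval, for the 10 class I presentation genes and 5 lists of related genes; rows within a list are staggered only to keep points apart. Points to both sides of 0 are seen in each list, from *Erap1* at -0.73 to *Tap2* at 0.69 among the 10 genes.

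Of 16 tested genes of peptide supply, 7 were higher, 5 lower and 4 not called (median log2 fold change 0.05). The shares among all genes tested were 33.3% higher and 41% lower. The standard catalytic subunits of the proteasome, *Psmb5*, *Psmb6* and *Psmb7*, were higher (0.25, 0.28 and 0.13), although *Psmb7* lost its call in 8 of 15 alternative fits (adjusted p = 0.0454 by limma). Of the interferon-inducible subunits that replace them in the immunoproteasome, *Psmb9* fell from 31.7 ± 0.951 to 20.8 ± 1.24 RPKM (± SD, n = 3). Its change on log2(RPKM + 1) was -0.58 (adjusted p = 9.48e-07 by limma). *Psmb10* fell by 10.0% (-0.15, adjusted p = 0.00387 by limma), and *Psmb8* overlapped between the groups (-0.018, adjusted p = 0.693 by limma). Within each library, *Psmb9* was at 0.265 ± 0.00605 times the RPKM of *Psmb6* in sh-NC and at 0.143 ± 0.00617 times in sh-*Etv5* cells (SD, n = 3). The ratios of *Psmb8* to *Psmb5* and of *Psmb10* to *Psmb7* were also lower in each knockdown library (differences of the log2 ratio -0.86, -0.27 and -0.27 for the 3 pairs, exact permutation test, p = 0.1, adjusted p = 0.133). Among peptidases, *Lnpep*, which encodes IRAP, a relative of ERAP1 in endosomes, rose by 60.9% (0.64, adjusted p = 3.98e-06 by limma), and *Lap3*, a cytosolic aminopeptidase, rose by 26.4% (0.33, adjusted p = 7.40e-06 by limma).

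*Psmb9* and *Tap1* lie head to head on chromosome 17 and are known to share a promoter region. In the annotation their exons overlap by 212 bases on opposite strands. *Tap1* was at 0.754, 0.769 and 0.786 times the RPKM of *Psmb9* in the 3 controls and at 1.60, 1.83 and 1.44 times in the sh-*Etv5* libraries. *Tap1* was thus below *Psmb9* in each control and above it in each knockdown library (difference of the log2 ratio 1.03, exact permutation test, p = 0.1, adjusted p = 0.133).

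**Figure D4:**
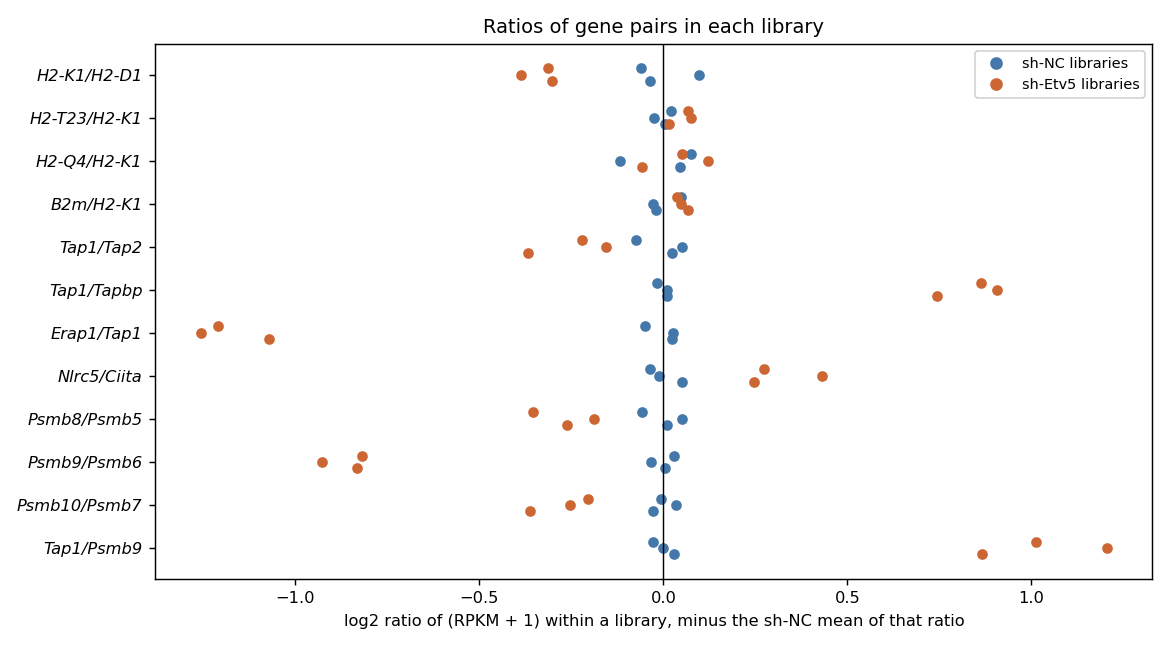
For each of 12 gene pairs, points give the log2 ratio of RPKM + 1 within a library, minus the mean of that ratio in the sh-NC libraries (horizontal axis). The sh-*Etv5* libraries are apart from the sh-NC libraries for 9 pairs, with *Erap1*/*Tap1* at -1.18 and *Tap1*/*Psmb9* at 1.03 as the largest mean differences, and overlap with them for the 3 pairs of *H2-T23*, *H2-Q4* and *B2m* with *H2-K1*. Of all single genes tested, 76.4% were without overlap between the groups, and the share among other pairs was not computed.

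Regulators of the pathway were also read. Of 27 tested genes, 8 were higher, 12 lower and 7 not called (median log2 fold change -0.01). Among all genes tested, 33.3% were higher and 41% lower. The subunits of NF-Y, the factor that binds CCAAT boxes, were lower, from *Nfya* (39.0 ± 0.245 to 22.3 ± 0.398 RPKM, SD, n = 3, log2 fold change -0.78, adjusted p = 7.81e-09 by limma) to *Nfyc* (-0.68) and *Nfyb* (-0.29). Of the RFX complex, with which NLRC5 acts, *Rfx5* was lower (-0.20, adjusted p = 0.0133 by limma), and *Rfxap* and *Rfxank* overlapped between the groups (0.053 and 0.012). Among interferon signaling genes, *Irf9* (-0.21), *Irf2* (-0.65), *Ifnar1* (-0.16), *Ifnar2* (-0.44) and *Ifngr1* (-0.40) were lower. *Stat2* (0.31), *Jak1* (0.36), *Jak2* (0.15) and *Irf8* (0.85, adjusted p = 7.23e-09 by limma) were higher, and *Irf1*, a direct activator of class I promoters, did not pass (-0.18, adjusted p = 0.0677 by limma) but was called lower in 3 of 14 alternative fits. *Ifng* was listed at 0 in all 6 libraries. *Ifnb1* was at 0, 0 and 0.175 RPKM in sh-NC and at 0.540, 0.570 and 0.272 RPKM in sh-*Etv5* libraries. It was thus higher in each knockdown library, but these values are below the filter and were not tested. Of the NF-κB subunits, *Rel* rose, from 4.84 to 6.53 RPKM in sh-NC to 9.05 to 12.0 RPKM in sh-*Etv5* libraries, with a log2 fold change of 0.80 (adjusted p = 3.71e-05 by limma). *Nfkb2* (0.32), *Rela* (0.17) and *Nfkb1* (0.13) were also higher, and *Relb* was not called. Over 15 alternative fits, *Ifnar1* and *Jak2* each lost their call in 3, and *Nfkb1* and *Rfx5* in 1.

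*Ciita*, the class II counterpart of *Nlrc5*, was at most 0.0523 RPKM in any library, so that the difference of 0.32 in the log2 ratio of *Nlrc5* to *Ciita* rests on *Nlrc5* (exact permutation test, p = 0.1, adjusted p = 0.133). In both groups the classical class II chain genes *H2-Aa*, *H2-Ab1* and *H2-Eb1* were at most 0.434 RPKM. Of the class II list only 2 genes were tested. With no filter on low values, 4 genes of it were lower, and with only genes of a mean of at least 5 RPKM, 0 were. *Cd74*, the invariant chain, rose from 107 ± 3.45 to 194 ± 6.64 RPKM (± SD, n = 3), which is a log2 change of 0.85 (adjusted p = 4.78e-09 by limma), and *H2-DMa* fell from 3.10 ± 0.291 to 1.71 ± 0.341 RPKM (± SD, n = 3), which is a log2 change of -0.60 (adjusted p = 0.000234 by limma).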

How the data were processed

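RNA from 3 sh-NC and 3 sh-*Etv5* libraries of Raw264.7 cells had been sequenced with an Illumina TruSeq RNA sample kit, and the authors deposited RPKM values per gene symbol and library, taken from coverage tracks as the column names tell, with mm10 as the build in the processing notes of the submitters. The aligner and gene annotation are not given in the sources used here. The number of reads is unknown. The relative depth was the most common ratio between libraries among genes under 0.2 RPKM, at which 29 to 58 genes lay, and the deposited RPKM summed to 320462 to 340257 per library. Groups were taken from the titles, and all 6 columns were used. Genes with at least 1 RPKM in at least 3 libraries entered the comparison of log2(RPKM + 1) by limma 3.58.1 in R 4.3.3 (eBayes with intensity trend, 2-sided, no covariate), with Benjamini-Hochberg adjustment over all genes. The study names limma for these libraries, without its settings. The fit was tested on simulated data. Ratios within a library were compared by exact permutation tests, adjusted over 12 pairs.

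Gene positions, exon overlaps and 50-base stretches came from GENCODE release M21 on GRCm38, the same build as mm10, and promoters from RefSeq on GRCm38.p6, with 8 of 10 members matched. *Tap2* and *Nlrc5* had no window. Of the 2 windows of *H2-K1*, the one that starts further upstream was used. Python 3.11.15, pandas 2.3.3, SciPy 1.17.1 and Biopython 1.88 were used. The members and the lists of related genes were chosen with earlier results of these data known, and so the lists were given counts and medians but no test. Genes named are the members, *Etv5*, the genes of the pairs, the 3 largest called changes of each list and the 3 genes closest to *Erap1*. Other genes of the lists, overlapping genes and markers were named after the values were seen, and 1 gene of the regulator list is not reported here by name. Alternatives were 2 other pseudocounts, 2 other filters, 3 other scalings, no intensity trend, a block for the replicate number, leaving out each library, and stricter thresholds.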

Additional observations from a re-analysis of the deposited data

How the results depend on the processing

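Of the 6 genes called, *H2-D1*, *Tap1*, *Tap2*, *Nlrc5*, *Tapbp* and *Erap1*, each kept its direction and its call under all 15 alternative fits. The counts depended on a fold threshold. With an absolute log2 fold change above 1 in addition, 669 of all genes were higher and 322 lower, and of the 10 class I genes 0 were higher and 0 lower. *H2-K1* turned to -0.037 with libraries rescaled to the same sum. Its ratio with *H2-Q4* (log2 ratio of *H2-Q4* to *H2-K1*, difference 0.037) ranged from -0.022 to 0.085 with each library left out and was below 0 without sh-NC replicate 2 and without sh-*Etv5* replicate 2. The other 11 pairs kept their direction.

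The replicate numbers of the titles did not pair the libraries, since the correlations of deviations from the group means were 0.074, -0.071 and -0.035 for the 3 numbers, and 2 of the 6 libraries correlated best with their own number. With the replicate block 3539 genes were higher and 4361 lower, against 3575 and 4399 without it, and the calls of the 10 genes stayed at 4 higher and 2 lower. Counting error could not be computed without read numbers, and it weighs most on genes near 1 RPKM such as *Mr1*, *Fcgrt* and *H2-Q5*.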
